A study of Homo sapiens with 21 samples.

Results

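The HOX genes of the HOXA, HOXB, HOXC and HOXD clusters were followed across 21 RNA sequencing libraries labelled as PC-9 cells, a human lung adenocarcinoma cell line driven by a deletion in EGFR. Members were all genes whose symbol is HOX, a cluster letter from A to D and a number. This rule found 39 genes among the 20111 listed in both expression tables, 11 in HOXA, 10 in HOXB, 9 in HOXC and 9 in HOXD. The rule itself uses symbols only.

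The study sorted PC-9 cells for surface EGFR over 6 rounds, keeping the brightest cells as the EGFR-high and the dimmest as the EGFR-low population, and asked how the populations differ. In the untreated experiment, unsorted Parental, EGFR-high and EGFR-low cells (3 libraries each) were collected 24 h after seeding. In the treated experiment, EGFR-high and EGFR-low cells received DMSO, the solvent, or 1 µM SAHA (vorinostat, a histone deacetylase inhibitor) for 72 h (3 libraries in each of 4 groups). Levels are FPKM, the number of sequenced fragments scaled to transcript length and library size, which allows genes of different length to be compared. By the labels all groups come from 1 cell line, and the sorted populations are pools, not clones. The genotype label is an EGFR deletion whose last residue is given as A750 in the first library and rises by 1 per library to A770 in the last. The study's methods state that assays used biological replicates, meaning separate experiments run at different times, and GEO's labels give replicate numbers only. If the libraries of a group are not such replicates, the p-values below measure only the spread between these libraries.

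HOX genes encode transcription factors that bind DNA through the homeodomain and give cells along the body axis their positional identity. Their order along each chromosome follows their order of use in the embryo, with low paralog numbers used in the front of the body and high numbers towards the tail. PBX and MEIS proteins bind DNA with them, Polycomb complexes keep the clusters silent, MLL (Trithorax) complexes keep them active, and retinoic acid induces the genes of low number. Adult cells tend to keep the HOX pattern of their site of origin, and HOXA5 and HOXB5 take part in lung development.

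In the GRCh38 annotation (GENCODE v29) HOXA lies on chromosome 7 from 27092993 to 27200106, HOXB on chromosome 17 from 48528526 to 48729178, HOXC on chromosome 12 from 53938765 to 54056030 and HOXD on chromosome 2 from 176092891 to 176190907. The study's own tables give no coordinates and were made on another build, hg19. Homeoboxes of 180 bases, which encode the 60 residues of the homeodomain, were found in transcripts of all 39 genes, each within a single exon of the coding region. Those of HOXA10, HOXB6, HOXB7 and HOXC13 are shown because these genes have large fold changes below. Capitals mark the codons for residues 48 to 51, tryptophan, phenylalanine, glutamine and asparagine, in the helix that contacts DNA.
HOXA10, chr7:27171947-27172126, minus strand: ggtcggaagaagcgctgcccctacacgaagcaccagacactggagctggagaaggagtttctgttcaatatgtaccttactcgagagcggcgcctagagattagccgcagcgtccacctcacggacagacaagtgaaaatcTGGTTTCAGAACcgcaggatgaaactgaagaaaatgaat
HOXB6, chr17:48596473-48596652, minus strand: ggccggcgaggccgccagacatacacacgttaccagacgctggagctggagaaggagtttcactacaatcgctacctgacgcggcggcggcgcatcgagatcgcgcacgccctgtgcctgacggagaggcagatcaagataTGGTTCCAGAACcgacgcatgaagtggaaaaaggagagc
HOXB7, chr17:48607908-48608087, minus strand: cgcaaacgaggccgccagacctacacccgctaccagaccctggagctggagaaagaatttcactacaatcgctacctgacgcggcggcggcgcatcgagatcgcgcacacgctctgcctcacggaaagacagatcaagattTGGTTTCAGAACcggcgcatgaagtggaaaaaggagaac
HOXC13, chr12:53945041-53945220, plus strand: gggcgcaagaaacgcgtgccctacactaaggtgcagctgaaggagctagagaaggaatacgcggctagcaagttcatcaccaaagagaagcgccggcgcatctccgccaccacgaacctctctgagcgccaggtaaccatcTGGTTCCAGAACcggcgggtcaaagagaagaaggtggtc

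HOXB6 and HOXB7 shared 88.9% of homeobox bases and 93.3% of homeodomain residues, and HOXB7 and HOXC13 shared 50.6% and 45.0%. Over all members, 8 genes had a run of 50 bases in common with another HOX gene and 2, HOXC4 and HOXC6, a run of 100 bases. At 100 bases the shared windows were 17.8% of those of HOXC4 and 11.1% of those of HOXC6, whose transcripts share exon bases on the same strand. In all, 9 HOX genes share exon bases with another HOX gene of the same strand (HOXB3, HOXB4, HOXB6, HOXC4, HOXC5, HOXC6, HOXC9, HOXD10 and HOXD11) and 19 with a gene of the opposite strand. How reads in such stretches were assigned, and whether strand was used, is not given in the sources used here, so the values of these genes are uncertain by that much.

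The labels were checked before the comparisons. EGFR was 26.5 to 60.6 FPKM in untreated EGFR-low, 160.5 to 269.1 in untreated EGFR-high, 16.1 to 43.3 in the treated EGFR-low and 83.3 to 207.0 in the treated EGFR-high libraries, so the ranges did not overlap within either experiment. Epithelial identity held in every library (EPCAM 171 to 434 FPKM, 10 epithelial and lung markers summed to 1576 to 4045). Of the lung markers, SFTPC was at or below 0.0643 and SFTPB at or below 0.0734 FPKM everywhere. NKX2-1, which specifies lung epithelium, was at most 0.0690 FPKM in the 9 untreated libraries, 25.6, 51.1 and 37.9 in EGFR-low DMSO and 0.0859, 0.0397 and 11.1 in EGFR-high DMSO. In EGFR-low SAHA it was 24.1, 48.7 and 43.8, and in EGFR-high SAHA 0.588, 0.0617 and 0.0674. NAPSA, another lung marker, was at most 0.125 FPKM in the untreated libraries. It was 0.524, 2.76 and 3.41 in EGFR-low DMSO, 0.207, 1.56 and 2.08 in EGFR-low SAHA and at most 0.619 in the treated EGFR-high libraries.

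The treated EGFR-low libraries did not resemble the untreated EGFR-low libraries. Over 39 HOX genes the correlation of log2 levels between 5 treated EGFR-low libraries (leaving out the library described next) and the 3 untreated EGFR-low libraries ran from -0.01 to 0.11, against 0.92 to 0.97 between 5 treated and 3 untreated EGFR-high libraries. Over 12468 genes the same ranges were 0.76 to 0.79 and 0.91 to 0.97. These correlations are across genes, which are not independent replicates, and share libraries. A set of 58 genes that were high only in the treated EGFR-low libraries had a median of 0 FPKM in the untreated libraries, and 118 genes that were high only in the treated EGFR-high libraries had a median of 11.9 there. Treatment and time in culture also differed between the experiments, so these cannot be told apart from the difference in pattern. The identity of the treated libraries labelled EGFR-low was not tested, and every value given for them below is that of the libraries so labelled. The experiments were therefore never tested against each other.

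A pair of libraries stood apart from their own groups. EGFR-low DMSO 1 held the 118 genes of the treated EGFR-high pattern at a median of 22.1% of their level in EGFR-high DMSO 1 and 2 (quartiles 19.3 and 24.7%). The 8 HOX genes read this way stood at 18.4 to 26.3%, among them HOXA3 at 18.5% and HOXB7 at 24.2%. EGFR-high DMSO 3 held the 58 genes of the treated EGFR-low pattern at a median of 24.9% of their level in EGFR-low DMSO 2 and 3, with HOXA10 at 37.3%, HOXD1 at 51.4% and HOXD4 at 16.6%. In the same libraries 5 leukocyte markers summed to 10.4 and 3.94 FPKM, against 0.241 to 4.02 in the other 10 treated and 0.0310 to 1.85 in the untreated libraries. CD3E was 0.937 and 0.290 FPKM in these libraries and at most 0.0184 in the other treated libraries. Fibroblast markers summed to 1.02 to 5.88 FPKM in all libraries, with DCN at 0 throughout, and the 2 endothelial markers found to 2.23 to 8.30, nearly all of it CDH5. The part of these libraries in the results was not tested, and the limma fold changes of HOX genes between the populations under DMSO are given with and without them. Neither library is in a SAHA group.

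**Figure D1:**
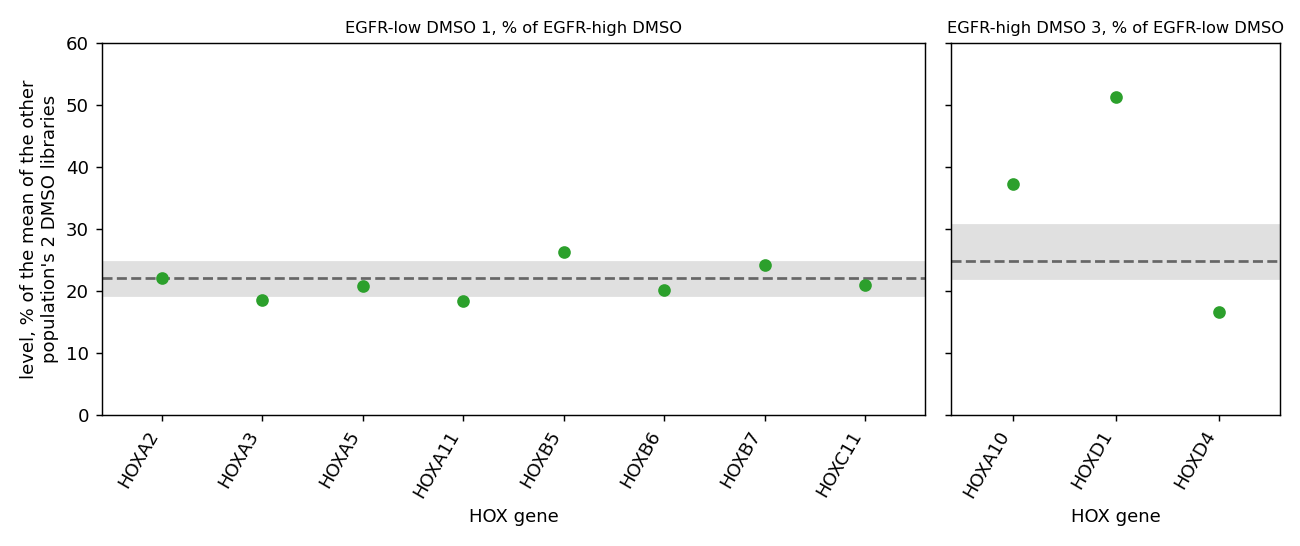
HOX gene levels in EGFR-low DMSO 1 (left) and EGFR-high DMSO 3 (right), as a percentage of the mean of the other population's 2 DMSO libraries that do not stand apart. The dashed line is the median and the grey band the quartiles of all genes read the same way (118 genes at left, 58 at right), and the 8 HOX genes at left lie between 18.4 and 26.3%.

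Most HOX genes were at low levels in these libraries. Only 3 of 39 reached 10 FPKM in any library, HOXB7, HOXA3 and HOXC13, and 20 did not reach 1 FPKM in 3 libraries of either experiment. HOXB1, HOXB13, HOXD9 and HOXD13 were listed at 0 in all 21 libraries. In the untreated libraries 10 genes were listed at 0 throughout, of which 8 belong to the 9 HOXD genes. A value of 0 is a listing, since the depth behind the FPKM values is unknown and no detection limit can be given.

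The untreated PC-9 pattern was led by HOXB7 and HOXA3. HOXB7, a middle gene of HOXB, was 22.4, 31.2 and 19.7 FPKM in Parental, 32.2, 40.7 and 31.3 in EGFR-low and 19.4, 20.2 and 22.1 in EGFR-high cells. HOXA3, a gene of the HOXA front used in pharyngeal development, was 16.8, 15.01 and 10.4 FPKM in Parental, 23.05, 11.9 and 18.2 in EGFR-low and 16.7, 14.8 and 24.4 in EGFR-high. Together they made up 55.1 to 67.0% of the summed FPKM of all HOX genes in each untreated library. HOXC13, the last gene of HOXC and known for its role in hair and nails, was next highest in 7 of the 9 untreated libraries, with 5.78, 4.096 and 2.84 FPKM in Parental, 5.76, 3.34 and 6.43 in EGFR-low and 8.24, 6.17 and 10.2 in EGFR-high. The levels of HOXB7 and HOXA3 overlapped in untreated EGFR-high cells, while in Parental and EGFR-low cells the HOXB7 libraries lay above every HOXA3 library.

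**Figure D2:**
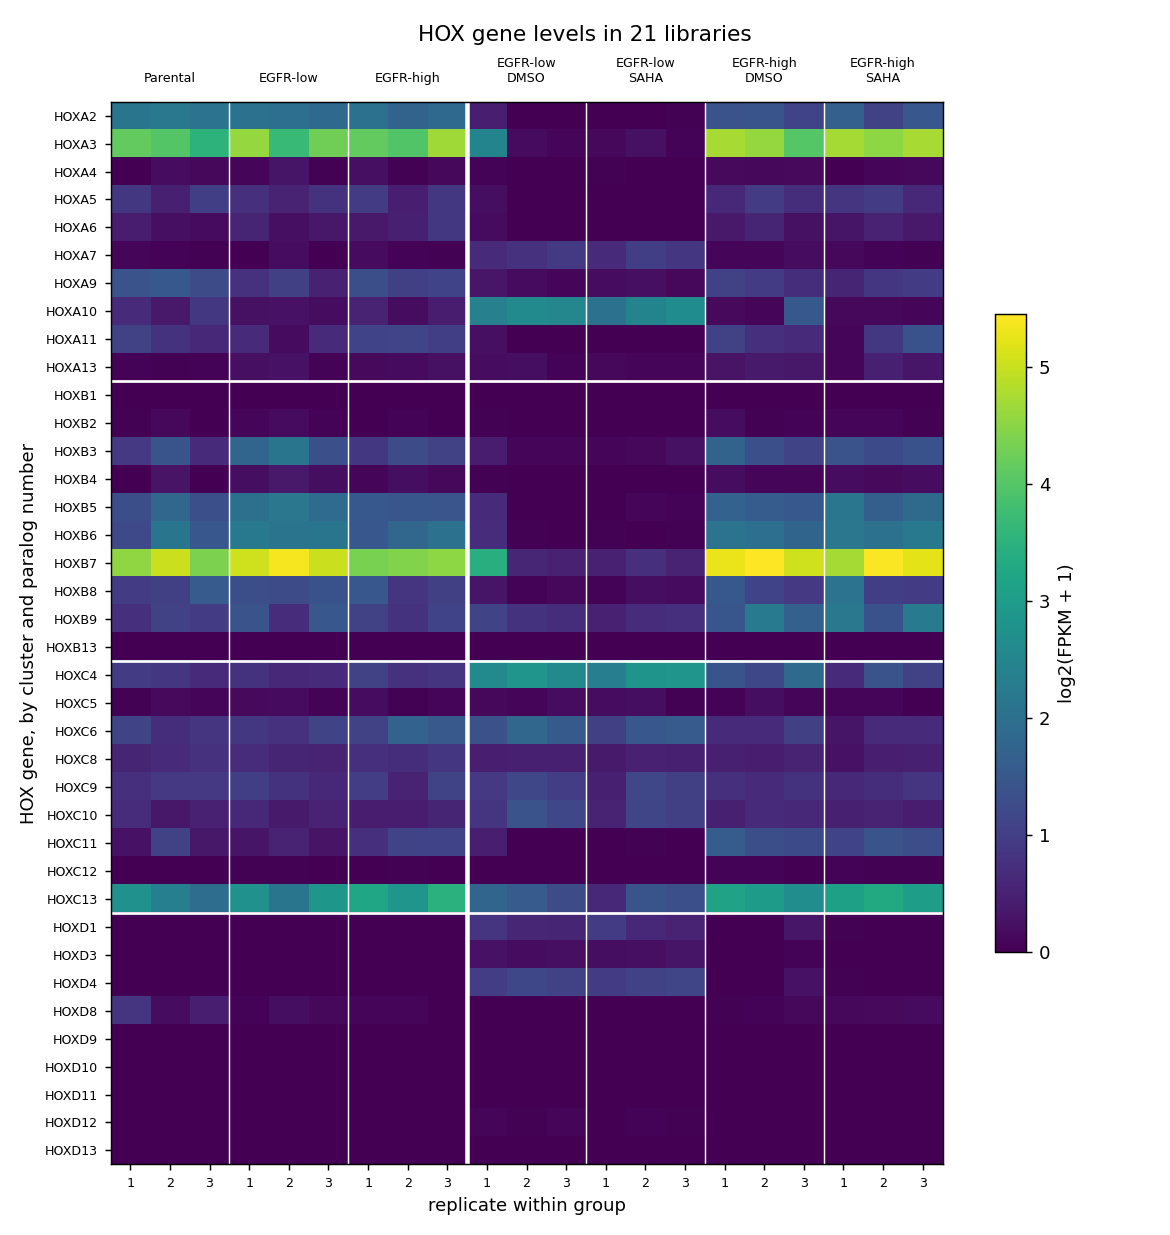
Levels of 38 HOX genes as log2(FPKM + 1) in 21 libraries, genes in rows by cluster and number, libraries in columns by group, with a thick white line between the untreated (left) and treated experiments. HOXB7 and HOXA3 are the brightest rows except in the EGFR-low DMSO and EGFR-low SAHA columns, where HOXC4 and HOXA10 lead in all but EGFR-low DMSO 1.

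No HOX gene passed the test between the untreated populations in the fit without replicate as a block. The shares of HOXB and HOXC in the summed HOX FPKM were nevertheless apart. HOXB made up 52.6 to 67.7% in EGFR-low and 38.3 to 45.3% in EGFR-high libraries, and HOXC 8.61 to 12.9% and 19.4 to 20.9%. Those of HOXA and HOXD overlapped, and the shares were not tested. Of 14 HOX genes tested, 0 were called between EGFR-low and EGFR-high by limma at an adjusted p under 0.05. Of all 11305 genes tested 1.62% were called higher and 2.19% lower. At an unadjusted p under 0.05 there were 6 of the 14 HOX genes and 1529 of all genes. Between EGFR-low and Parental 0 of 14 were called (background 0.831% higher and 0.770% lower), with 4 HOX genes and 1668 of all genes at an unadjusted p under 0.05. Between EGFR-high and Parental 0 of 14 were called (background 0.0619% higher and 0.00885% lower), with 2 HOX genes and 1093 of all genes at an unadjusted p under 0.05. The median log2 fold change of the tested HOX genes was 0.14, 0.25 and 0.11 in the 3 comparisons, against -0.03, 0.06 and 0.07 over all genes. For EGFR-high against Parental quantile normalization moved both medians by more than 0.1, to -0.10 for HOX genes and -0.04 for all genes. For EGFR-low against Parental the same setting moved the HOX median from 0.25 to 0.09 and that of all genes from 0.06 to -0.01.

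The middle HOXB genes had their highest untreated means in EGFR-low cells, but none passed the test without the block. HOXB3 was 2.41, 3.33 and 1.51 FPKM in EGFR-low, 0.834, 1.39 and 1.07 in EGFR-high and 0.861, 1.68 and 0.563 in Parental. HOXB5, which acts in lung branching, was 1.47, 2.46 and 1.5 FPKM in Parental, 3.04, 3.46 and 2.72 in EGFR-low and 1.82, 1.74 and 1.72 in EGFR-high. HOXB6 was 1.31, 3.31 and 1.78 FPKM in Parental, 3.61, 3.27 and 3.36 in EGFR-low and 1.79, 2.48 and 3.15 in EGFR-high. For HOXB3, HOXB5, HOXB6 and HOXB7 the 3 EGFR-low libraries lay above the 3 EGFR-high libraries without overlap. Of the other HOX genes reported here and above 0 in either population, 3 lay lower in EGFR-low without overlap and 21 overlapped. The share of all genes without overlap was not counted. Separation of 3 libraries from 3 has an exact two-sided permutation p of 0.1, so it is a description only. The log2 fold changes of EGFR-low over EGFR-high, on log2(FPKM + 1), were 0.68 (SE 0.26, adjusted p = 0.258) for HOXB3, 0.56 (adjusted p = 0.205) for HOXB5, 0.36 (adjusted p = 0.661) for HOXB6 and 0.72 (SE 0.24, adjusted p = 0.167) for HOXB7. Libraries of these populations with the same replicate number deviated together (correlations 0.34, 0.73 and 0.69), and in a fit with replicate as a block HOXB7 alone was called, at a log2 fold change of 0.72 and adjusted p = 0.0433. In that fit 3.85% of all genes were called higher and 4.69% lower.

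HOXB8 and HOXB9 also had their highest untreated means in EGFR-low cells, but their libraries overlapped between the populations. HOXB8 was 0.9202, 1.04 and 1.95 FPKM in Parental, 1.49, 1.36 and 1.59 in EGFR-low and 1.78, 0.785 and 1.05 in EGFR-high, and HOXB9 was 0.688, 1.08 and 0.962 FPKM in Parental, 1.63, 0.6099 and 1.78 in EGFR-low and 1.11, 0.731 and 1.15 in EGFR-high. HOXB1 and HOXB13 stayed at 0, HOXB2 at or below 0.117 and HOXB4 at or below 0.286 FPKM, so the active part of HOXB ran from HOXB3 to HOXB9 with HOXB4 as a gap.

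In HOXA and HOXC no untreated difference passed the test, and fold changes took either sign. HOXA11 had a log2 fold change of -0.59 (SE 0.20, adjusted p = 0.168) and HOXC11 one of -0.62 (SE 0.23, adjusted p = 0.224) for EGFR-low against EGFR-high. HOXC11, a HOXC gene of the tail end, was 0.204, 1.08 and 0.285 FPKM in Parental, 0.2296, 0.465 and 0.217 in EGFR-low and 0.699, 1.16 and 1.15 in EGFR-high. HOXC6, a middle gene, was 1.16, 0.634 and 0.776 FPKM in Parental, 0.834, 0.708 and 1.16 in EGFR-low and 1.101, 2.27 and 1.89 in EGFR-high. HOXA2, which patterns the hindbrain and branchial arches, was 3.34, 3.51 and 3.19 FPKM in Parental, 3.18, 2.98 and 2.63 in EGFR-low and 3.14, 2.34 and 2.62 in EGFR-high. The EGFR-low and EGFR-high libraries overlapped for HOXC6 and HOXA2 and not for HOXC11. HOXA9, a posterior HOXA gene, had the lowest unadjusted p of the EGFR-low against Parental comparison, with 0.722, 1.04 and 0.419 FPKM in EGFR-low and 1.62, 1.82 and 1.37 in Parental (log2 fold change -0.60, SE 0.19, adjusted p = 0.187). HOXA10 was 0.558, 0.296 and 0.853 FPKM in Parental, 0.1802, 0.206 and 0.129 in EGFR-low and 0.462, 0.133 and 0.339 in EGFR-high. HOXC4 was 0.9504, 0.813 and 0.589 FPKM in Parental, 0.741, 0.553 and 0.566 in EGFR-low and 1.07, 0.718 and 0.761 in EGFR-high, and HOXC10 was 0.604, 0.282 and 0.422 FPKM in Parental, 0.531, 0.323 and 0.464 in EGFR-low and 0.356, 0.333 and 0.476 in EGFR-high. All 3 were below 1.1 FPKM in every untreated library. Of the other HOXA genes, the range over the 9 untreated libraries was 0.376 to 1.02 FPKM for HOXA5, 0.125 to 0.838 for HOXA6, 0.0105 to 0.131 for HOXA7 and 0.118 to 1.197 for HOXA11. The 3 untreated comparisons share groups, so their values are not independent of each other.

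HOXD was close to silent without treatment. HOXD8 was 0.8, 0.127 and 0.378 FPKM in Parental, 0.0427, 0.156 and 0.0908 in EGFR-low and 0.0492, 0.0577 and 0 in EGFR-high cells. It was the 1 HOXD gene above 0 in these libraries, and HOXD4 was listed at 0 in all 9.

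**Figure D3:**
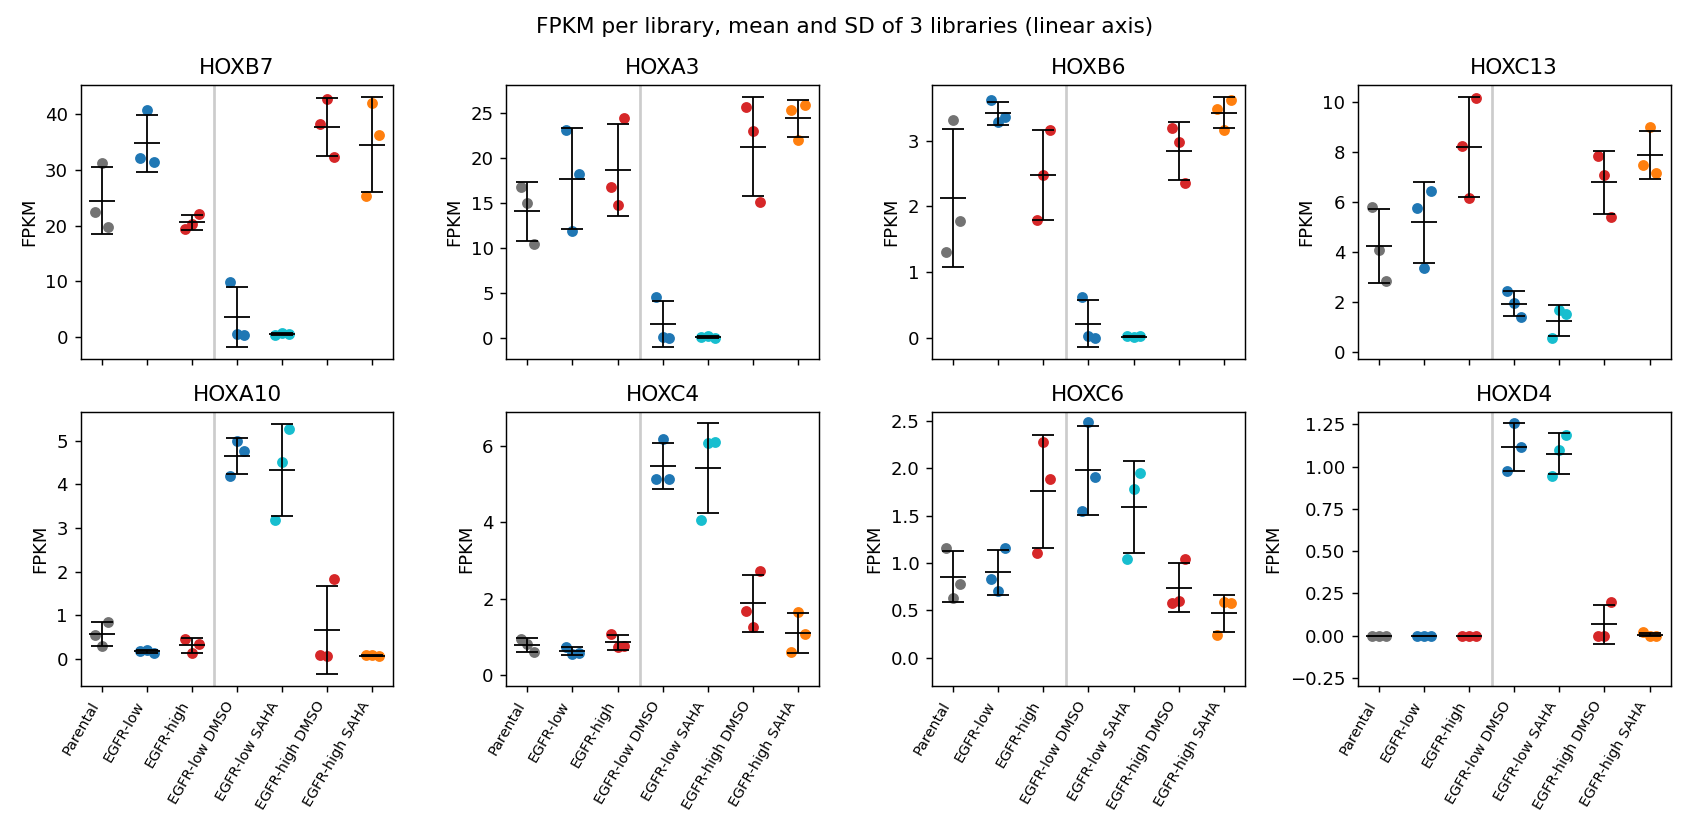
FPKM of 8 HOX genes in each of 7 groups (points: libraries, lines: mean and SD of 3 libraries, grey line: border between the experiments). HOXB7, HOXA3, HOXB6 and HOXC13 are lowest in the treated EGFR-low groups, and HOXA10, HOXC4 and HOXD4 are highest there, with HOXA10 at 3.18 to 5.26 FPKM in the 6 treated EGFR-low libraries.

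In the treated experiment the HOX pattern of the libraries labelled EGFR-low differed from that of the EGFR-high libraries in genes of each cluster, though not in every gene. Under DMSO 15 of 16 tested HOX genes were called, 5 higher and 10 lower in EGFR-low, where 31.1% of all 12236 genes tested were called higher and 20.7% lower. Under SAHA 14 of 16 were called, 4 higher and 10 lower, against 36.2% and 22.8% of all genes. These counts cannot be read as support on their own, because 14 of the 16 genes passed the filter on low values through 1 population only (HOXC4 and HOXC13 passed through both). Leaving out EGFR-low DMSO 1 and EGFR-high DMSO 3, 15 and 14 HOX genes were called under DMSO and SAHA, against 30.3% higher and 19.3% lower, and 35.0% higher and 21.9% lower, of all genes. When replicate was added as a block, 15 were called under SAHA (38.4% higher and 24.0% lower of all genes). Scaling the libraries to the median of ratios moved the median of all genes by more than 0.1 (from 0.12 to 0.0034 under DMSO and from 0.16 to -0.00067 under SAHA), and the share of calls that were higher from 60.1% to 49.8% and from 61.3% to 50.2%, with 3807 higher and 2527 lower against 3177 and 3201 under DMSO, and 4427 and 2795 against 3617 and 3591 under SAHA. The counts of HOX calls stayed at 5 higher and 10 lower and at 4 higher and 10 lower. In bulk RNA fewer cells that express a gene and less RNA per cell cannot be told apart.

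HOXB7 and HOXA3 had the largest fold changes. HOXB7 was 9.77, 0.507 and 0.412 FPKM in EGFR-low DMSO and 0.417, 0.652 and 0.466 in EGFR-low SAHA, against 38.3, 42.7 and 32.3 in EGFR-high DMSO and 25.3, 41.97 and 36.3 in EGFR-high SAHA. Every EGFR-low library lay below every EGFR-high library, and EGFR-low DMSO 1 lay far above the other 5. The log2 fold change was -3.76 (SE 0.59, adjusted p = 0.000474) under DMSO and -4.53 (SE 0.59, adjusted p = 7.88e-05) under SAHA. Without EGFR-low DMSO 1 and EGFR-high DMSO 3 the DMSO value was -4.83.

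HOXB3, HOXB5 and HOXB6 were also lower in EGFR-low. HOXB3 was 0.332, 0.0641 and 0.0762 FPKM in EGFR-low DMSO, 0.0671, 0.0911 and 0.182 in EGFR-low SAHA, 2.35, 1.504 and 1.16 in EGFR-high DMSO and 1.64, 1.32 and 1.57 in EGFR-high SAHA. HOXB5 was 0.562, 0.0102 and 0.0107 FPKM in EGFR-low DMSO, 0.0118, 0.0483 and 0.0387 in EGFR-low SAHA, 2.27, 2 and 1.82 in EGFR-high DMSO and 3.41, 2.13 and 2.67 in EGFR-high SAHA. HOXB6 was 0.625, 0.0261 and 0 FPKM in EGFR-low DMSO, 0.0289, 0.0126 and 0.0272 in EGFR-low SAHA, 3.19, 2.98 and 2.35 in EGFR-high DMSO and 3.49, 3.17 and 3.62 in EGFR-high SAHA. In all of these the EGFR-low libraries other than EGFR-low DMSO 1 were at or below 0.182 FPKM. Log2 fold changes under DMSO were -1.19 for HOXB3, -1.37 for HOXB5 and -1.69 for HOXB6 (adjusted p = 0.000344, 0.000327 and 0.000327), and under SAHA -1.17, -1.84 and -2.11 (adjusted p = 0.000141, 3.82e-05 and 3.82e-05). Without EGFR-low DMSO 1 and EGFR-high DMSO 3 the DMSO values were -1.44, -1.63 and -2.01. These genes and HOXB7 had the opposite order without treatment. That makes 4 of the 11 HOX genes tested in both experiments whose populations were apart in opposite directions, against 5.81% of all genes tested in both. All 4 passed the filter of the treated experiment through EGFR-high only, which favours a lower EGFR-low level. They lie in 1 cluster, and HOXB3 and HOXB6 share exon bases, so they are not independent and the count is a description only.

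HOXB8 and HOXB9, the last active genes of HOXB, were lower in EGFR-low as well. HOXB8 was 0.231, 0.0347 and 0.0851 FPKM in EGFR-low DMSO, 0.0402, 0.154 and 0.111 in EGFR-low SAHA, 1.84, 1.14 and 0.8701 in EGFR-high DMSO and 3.24, 1.02 and 0.918 in EGFR-high SAHA. HOXB9 was 1.17, 0.733 and 0.639 FPKM in EGFR-low DMSO, 0.412, 0.606 and 0.684 in EGFR-low SAHA, 1.75, 3.81 and 2.17 in EGFR-high DMSO and 3.51, 1.61 and 3.76 in EGFR-high SAHA. In the EGFR-low libraries other than EGFR-low DMSO 1, HOXB9 was at or above 0.412 FPKM and exceeded HOXB7 in 3 of those 5. Its log2 fold change was -0.92 (SE 0.26, adjusted p = 0.0106) under DMSO and -1.29 (SE 0.26, adjusted p = 0.00112) under SAHA, and the DMSO call was lost without EGFR-high DMSO 2 (adjusted p = 0.0508). HOXB8 had -1.01 (SE 0.27, adjusted p = 0.00823) under DMSO and -1.21 (SE 0.27, adjusted p = 0.00234) under SAHA. Without EGFR-low DMSO 1 and EGFR-high DMSO 3 the DMSO values were -1.11 for HOXB9 and -1.22 for HOXB8.

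In HOXA, HOXA3 and HOXA2 were lower and HOXA10 was higher in the EGFR-low libraries. HOXA3 was 4.501, 0.117 and 0.0494 FPKM in EGFR-low DMSO, 0.0816, 0.189 and 0.0447 in EGFR-low SAHA, 25.6, 22.9 and 15.1 in EGFR-high DMSO and 25.3, 22.03 and 25.8 in EGFR-high SAHA. HOXA10, which acts in the uterus and in blood progenitors, had the reverse pattern, 4.18, 4.99 and 4.76 in EGFR-low DMSO, 3.18, 4.52 and 5.26 in EGFR-low SAHA, 0.0946, 0.07495 and 1.82 in EGFR-high DMSO and 0.0831, 0.0803 and 0.0638 in EGFR-high SAHA. Both separated the populations without overlap, the highest EGFR-low value of HOXA3 was that of EGFR-low DMSO 1, and the highest EGFR-high value of HOXA10 was that of EGFR-high DMSO 3. The HOXA3 log2 fold change was -3.54 (SE 0.49, adjusted p = 0.000329) under DMSO and -4.52 (SE 0.49, adjusted p = 4.22e-05) under SAHA, and that of HOXA10 was 1.92 (SE 0.31, adjusted p = 0.000542) and 2.29 (SE 0.31, adjusted p = 9.39e-05). Without the libraries that stand apart the DMSO values were -4.54 and 2.44.

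HOXA2 was 0.364, 0 and 0 FPKM in EGFR-low DMSO, 0, 0 and 0.0191 in EGFR-low SAHA, 1.62, 1.67 and 1.13 in EGFR-high DMSO and 2.17, 1.096 and 1.79 in EGFR-high SAHA, with log2 fold changes of -1.15 and -1.40 (adjusted p = 0.000503 and 8.05e-05) under DMSO and SAHA, and -1.40 under DMSO without the pair of libraries. HOXA genes that did not reach the filter were compared on FPKM by the exact permutation test, two-sided, whose smallest p for 3 libraries against 3 is 0.1. HOXA7, a middle gene, was 0.602, 0.714 and 0.888 in EGFR-low DMSO and 0.0706, 0.05597 and 0.128 in EGFR-high DMSO (exact p = 0.1). HOXA5, HOXA6 and HOXA11 were at 0 in EGFR-low DMSO 2 and 3 and between 0.116 and 0.163 in EGFR-low DMSO 1. In EGFR-high DMSO they ran from 0.185 to 1.07 FPKM. HOXA9 was 0.249, 0.121 and 0.07398 against 1.12, 0.949 and 0.638 (exact p = 0.1), and HOXA4 and HOXA13 stayed at or below 0.396 FPKM in all 21 libraries.

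As HOXA3 and HOXA10 lie in 1 cluster and differed in opposite directions, their promoters are shown, the 250 bases before a transcription start in RefSeq (GRCh38.p14), 5′ to 3′ on the minus strand. RefSeq promoters matched 20 HOX symbols with 27 starts, and HOXB7 was not among them. Capitals mark 4 motifs on either strand. These are the TATA box (letters TATAAA), the GC box bound by SP1 (letters GGGCGG), the CCAAT box bound by NF-Y (letters CCAAT) and a site type of PBX with HOX proteins (letters TGATNNAT). Of 7 HOXA3 starts the one farthest from the coding region and the one nearest to it are printed.
HOXA10, chr7:27179862-27180111: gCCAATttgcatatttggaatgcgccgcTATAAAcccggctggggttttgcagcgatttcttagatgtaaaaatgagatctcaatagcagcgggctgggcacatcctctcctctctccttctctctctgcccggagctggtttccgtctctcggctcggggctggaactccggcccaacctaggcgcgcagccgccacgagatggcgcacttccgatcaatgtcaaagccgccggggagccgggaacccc
HOXA10, chr7:27174321-27174570: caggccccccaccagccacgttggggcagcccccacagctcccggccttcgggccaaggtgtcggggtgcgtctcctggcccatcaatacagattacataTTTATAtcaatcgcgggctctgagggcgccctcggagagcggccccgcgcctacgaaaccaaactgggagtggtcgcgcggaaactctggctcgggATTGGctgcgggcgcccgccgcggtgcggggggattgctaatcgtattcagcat
HOXA3, chr7:27152584-27152833: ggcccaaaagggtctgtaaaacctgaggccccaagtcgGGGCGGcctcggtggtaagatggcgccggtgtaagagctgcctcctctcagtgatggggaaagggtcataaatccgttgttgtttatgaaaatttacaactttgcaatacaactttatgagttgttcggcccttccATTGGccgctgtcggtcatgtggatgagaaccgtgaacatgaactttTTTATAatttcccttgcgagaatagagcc
HOXA3, chr7:27113843-27114092: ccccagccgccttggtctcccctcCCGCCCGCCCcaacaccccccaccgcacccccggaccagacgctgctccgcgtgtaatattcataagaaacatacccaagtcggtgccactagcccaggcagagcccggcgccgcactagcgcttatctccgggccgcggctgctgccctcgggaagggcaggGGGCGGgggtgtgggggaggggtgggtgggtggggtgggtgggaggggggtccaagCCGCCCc

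Both HOXA10 promoters hold 1 TATA box and 1 CCAAT box and no GC box. The far HOXA3 promoter holds 1 each of the TATA, GC and CCAAT boxes, and the near one 4 GC boxes and none of the others. Over 35116 RefSeq promoters 10.7% hold the TATA box, 42.6% the GC box, 32.0% the CCAAT box and 6.5% the PBX with HOX site, and of the 27 HOX promoters 18.5%, 48.1%, 66.7% and 11.1% do. The HOX windows include starts of the same gene and 1 window listed for both HOXC4 and HOXC5, so they are not independent. A match describes the letters only, and the PBX with HOX site was in none of the 4 windows printed.

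HOXC4 and HOXC6, towards the front of HOXC, were higher in EGFR-low. HOXC4 was 5.14, 6.17 and 5.13 FPKM in EGFR-low DMSO, 4.06, 6.08 and 6.11 in EGFR-low SAHA, 1.68, 1.26 and 2.71 in EGFR-high DMSO and 0.587, 1.64 and 1.07 in EGFR-high SAHA. It was the top HOX gene in 5 of 6 treated EGFR-low libraries, where HOXB7 or HOXA3 led every EGFR-high library. HOXC6 was 1.55, 2.48 and 1.902 FPKM in EGFR-low DMSO, 1.04, 1.78 and 1.95 in EGFR-low SAHA, 0.575, 0.602 and 1.04 in EGFR-high DMSO and 0.246, 0.592 and 0.576 in EGFR-high SAHA, but its transcripts share exon bases with HOXC4. Log2 fold changes were 1.2 (SE 0.23, adjusted p = 0.00137) and 1.63 (SE 0.23, adjusted p = 0.000124) for HOXC4 under DMSO and SAHA, and 0.78 (SE 0.19, adjusted p = 0.0055) and 0.81 (SE 0.19, adjusted p = 0.00346) for HOXC6. Without the pair of libraries the DMSO values were 1.43 and 1.00.

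HOXC13 and HOXC11, at the other end, were lower in EGFR-low. HOXC13 was 2.42, 1.96 and 1.42 FPKM in EGFR-low DMSO, 0.5397, 1.68 and 1.52 in EGFR-low SAHA, 7.85, 7.08 and 5.402 in EGFR-high DMSO and 7.49, 8.99 and 7.15 in EGFR-high SAHA. HOXC11 was 0.364, 0.0102 and 0 FPKM in EGFR-low DMSO, 0, 0.029 and 0 in EGFR-low SAHA, 2.01, 1.47 and 1.33 in EGFR-high DMSO and 1.14, 1.63 and 1.46 in EGFR-high SAHA. Every EGFR-low library lay below every EGFR-high library for both genes, and HOXC11 was at or below 0.0290 FPKM in the 5 EGFR-low libraries that do not stand apart. Log2 fold changes were -1.41 (SE 0.22, adjusted p = 0.000496) and -2.02 (SE 0.22, adjusted p = 4.39e-05) for HOXC13, and -1.22 (SE 0.16, adjusted p = 0.000327) and -1.25 (SE 0.16, adjusted p = 7.13e-05) for HOXC11. Without the pair of libraries the DMSO values were -1.66 and -1.44.

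Between these ends the differences were smaller. HOXC10 was 0.801, 1.63 and 1.24 in EGFR-low DMSO, 0.425, 1.19 and 1.06 in EGFR-low SAHA, 0.392, 0.593 and 0.548 in EGFR-high DMSO and 0.386, 0.433 and 0.358 FPKM in EGFR-high SAHA. It was called under DMSO (log2 fold change 0.54, SE 0.19, adjusted p = 0.0286) and not under SAHA (log2 fold change 0.42, SE 0.19, adjusted p = 0.0717), where the replicate block called it. The DMSO call was lost without EGFR-low DMSO 2, EGFR-low DMSO 3, EGFR-high DMSO 1 or EGFR-high DMSO 2 (adjusted p = 0.0519 to 0.125) and with quantile normalization (adjusted p = 0.24). HOXC9 was not called under DMSO (log2 fold change 0.28, SE 0.17, adjusted p = 0.198) or SAHA (log2 fold change 0.17, SE 0.17, adjusted p = 0.422), and ran from 0.4001 to 1.24 FPKM over all 21 libraries. Without the pair of libraries the DMSO values were 0.70 for HOXC10 and 0.37 for HOXC9. HOXC8 was 0.198 to 0.830 FPKM in all 21 libraries, HOXC5 at or below 0.148 and HOXC12 at or below 0.0358.

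HOXD4 was higher in the treated EGFR-low libraries. HOXD4, a gene of the neck region, was 0.971, 1.26 and 1.11 FPKM in EGFR-low DMSO, 0.946, 1.098 and 1.19 in EGFR-low SAHA, 0, 0 and 0.197 in EGFR-high DMSO and 0.0183, 0 and 0 in EGFR-high SAHA. Its log2 fold change was 0.99 (SE 0.13, adjusted p = 0.000327) under DMSO and 1.04 (SE 0.13, adjusted p = 5.46e-05) under SAHA, and 1.13 under DMSO without the pair of libraries. HOXD1 was 0.765, 0.501 and 0.473 FPKM in EGFR-low DMSO, 0.949, 0.545 and 0.467 in EGFR-low SAHA, 0, 0 and 0.2503 in EGFR-high DMSO and 0.0249, 0 and 0 in EGFR-high SAHA. HOXD3 was 0.211, 0.136 and 0.168 FPKM in EGFR-low DMSO, 0.155, 0.1697 and 0.2396 in EGFR-low SAHA, 0, 0 and 0.0417 in EGFR-high DMSO and 0.0108, 0 and 0 in EGFR-high SAHA. The exact p was 0.1 for both genes under DMSO and under SAHA. These 3 front HOXD genes were above 0 in all 6 EGFR-low libraries and, among EGFR-high libraries, in EGFR-high DMSO 3 and EGFR-high SAHA 1. EGFR-high SAHA 1 also had the highest NKX2-1 of the EGFR-high SAHA libraries, 0.588 FPKM against 0.0617 and 0.0674. HOXD8 had at most 0.0146 FPKM in EGFR-low and 0.0175 to 0.117 in EGFR-high libraries. HOXD12 was at or below 0.0615 FPKM and HOXD10 and HOXD11 at or below 0.0113.

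The shares of HOXB, HOXC and HOXD in the summed level also differed between the populations, while that of HOXA overlapped, with 28.2 to 36.6% in the treated EGFR-high and 26.1 to 29.2% in the treated EGFR-low libraries. HOXB made up 50.1 to 56.8% of summed HOX FPKM in the treated EGFR-high libraries and 5.89 to 7.16% in the EGFR-low libraries other than EGFR-low DMSO 1, where it made up 34.4%. HOXC made up 12.7 to 16.5% in EGFR-high and 49.1 to 59.8% in those 5 EGFR-low libraries. HOXD, at 0.0183 to 0.770% in EGFR-high, made up 5.43 to 14.7% in the 6 EGFR-low libraries. The sum over all HOX genes was 74.6 to 95.6 FPKM in EGFR-high and 14.1 to 37.0 in EGFR-low libraries. Shares depend on this sum, so they do not give the level of a cluster. The summed FPKM of HOXA did not overlap, with 4.11 to 10.66 in EGFR-low and 21.03 to 32.05 in EGFR-high libraries. That of HOXC overlapped, with 6.91 to 13.95 in EGFR-low and 10.68 to 14.37 in EGFR-high libraries. The sums of HOXB and HOXD did not overlap, as with their shares.

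**Figure D4:**
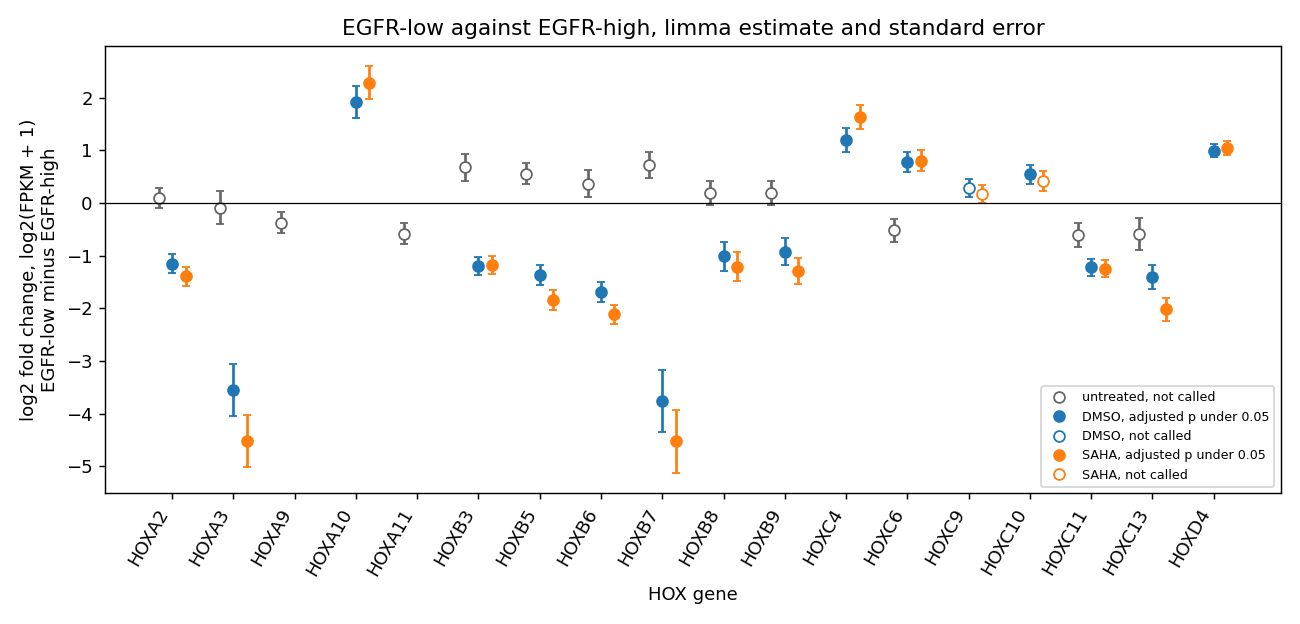
Log2 fold change (limma on log2(FPKM + 1), bars: standard error) of EGFR-low over EGFR-high for each HOX gene tested, in untreated (grey), DMSO (blue) and SAHA (orange) libraries, filled where the adjusted p is under 0.05. All untreated points are open and between -0.62 and 0.72, while HOXB7 and HOXA3 reach -4.53 and -4.52 under SAHA.

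No HOX gene tested by limma passed the test between SAHA and DMSO. SAHA against DMSO gave 0 called HOX genes of 16 in EGFR-low and 0 of 16 in EGFR-high cells, with 0 at an unadjusted p under 0.05 in both. The same limma test called 0% of all 12236 genes in either population (115 and 409 at an unadjusted p under 0.05), and the difference between the SAHA effects of the populations gave 0 called genes as well (215 unadjusted, 0 of them HOX). HOX log2 fold changes ran from -0.91 to -0.02 in EGFR-low and from -0.47 to 0.29 in EGFR-high, with medians of -0.16 and -0.04 against -0.03 and -0.06 over all genes. Leaving out EGFR-low DMSO 1 and EGFR-high DMSO 3, the calls were 0 (118 and 213 genes at an unadjusted p under 0.05) in both populations (0% of all genes). The HOX medians were then -0.03 in EGFR-low and 0.0017 in EGFR-high, against -0.02 over all genes in each, so the lower EGFR-low median went with these libraries. Among genes below the filter, named after their values were seen, HOXA4 was 0.0972, 0.0898 and 0.0932 FPKM in EGFR-high DMSO and 0.0148, 0.0548 and 0.0778 in EGFR-high SAHA, and HOXD8 was 0.0175, 0.0422 and 0.0854 and 0.08702, 0.104 and 0.117. Their groups did not overlap (exact p = 0.1 for both, the smallest that 3 libraries against 3 allow), at levels of at most 0.117 FPKM. The groups of the other 31 HOX genes compared in EGFR-high overlapped, as did those of all 35 compared in EGFR-low. The share over all genes was not counted, so these 2 genes are a description only.

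The intervals bound changes on log2(FPKM + 1), a scale on which genes near 0 FPKM have little room to fall. For HOXB7 in EGFR-low cells the log2 fold change of SAHA over DMSO was -0.91 (95% interval -2.21 to 0.38) and 0.05 (95% interval -0.40 to 0.50) without the libraries that stand apart. For HOXA3 it was -0.75 (95% interval -1.83 to 0.32) and 0.03 (95% interval -0.30 to 0.35). The lower values with all libraries go with EGFR-low DMSO 1, whose HOXB7 and HOXA3 were 9.77 and 4.50 FPKM. HOXC13 in EGFR-low cells had -0.41 (95% interval -0.90 to 0.08) and HOXA10 had -0.10 (95% interval -0.78 to 0.57). In EGFR-high cells HOXC4 had -0.46 (95% interval -0.96 to 0.05), HOXA10 -0.47 (95% interval -1.15 to 0.21) and HOXB7 -0.15 (95% interval -1.44 to 1.15). In the 5 treated EGFR-low libraries that do not stand apart, HOXB7 was at most 0.652 and HOXA3 at most 0.189 FPKM. A large fall from such levels cannot show on this scale, so the intervals without the pair cannot exclude one. With all libraries the room to fall came mostly from EGFR-low DMSO 1.

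**Figure D5:**
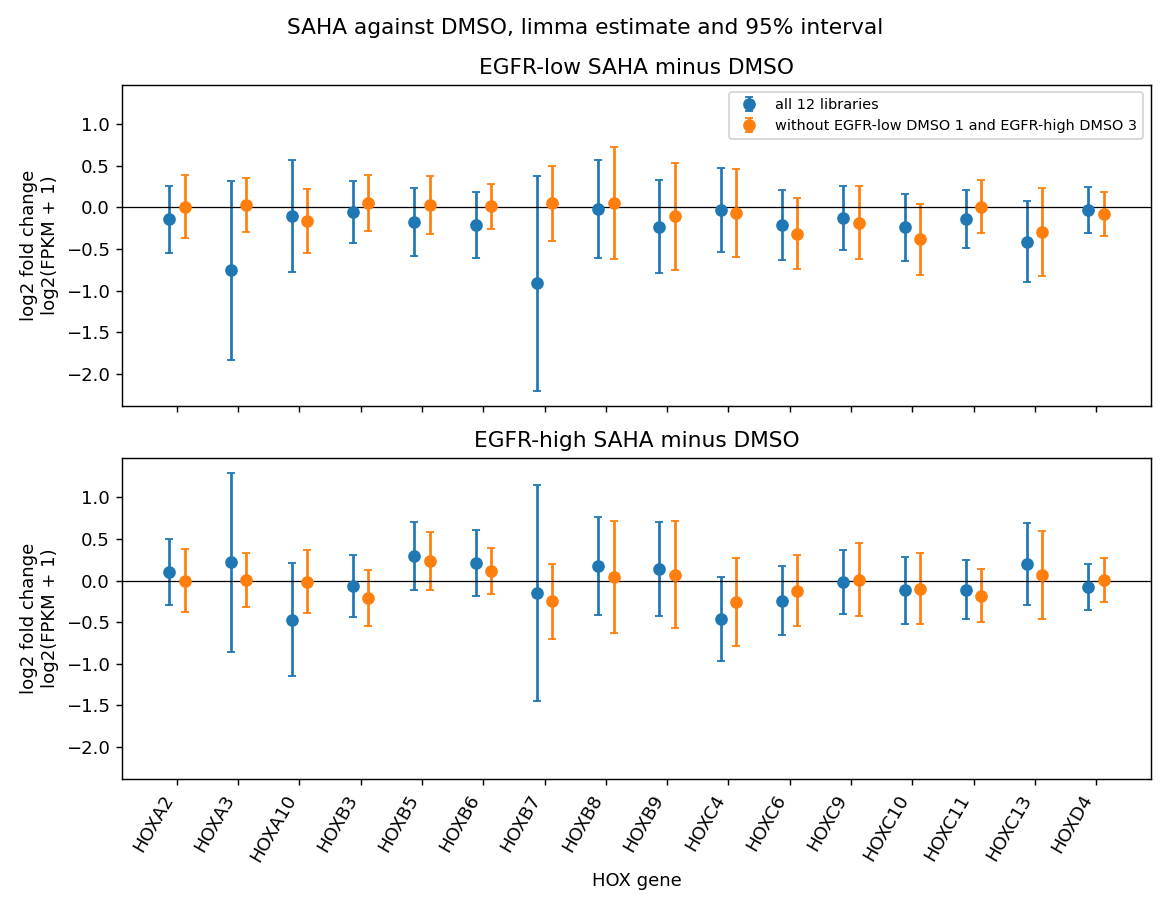
Log2 fold change of SAHA over DMSO (limma on log2(FPKM + 1), bars: 95% interval) for 16 HOX genes in EGFR-low (top) and EGFR-high cells (bottom), with all 12 libraries (blue) and without EGFR-low DMSO 1 and EGFR-high DMSO 3 (orange). With all 12 libraries every interval includes 0, and the intervals of HOXB7 and HOXA3 are the widest.

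The partners and regulators of HOX genes were counted next, from lists chosen with earlier results of these data known. Of the TALE partners (PBX, MEIS and PREP), 7 of 9 were tested in the treated experiment. Under DMSO 2 were higher and 1 lower in EGFR-low, and under SAHA 1 was higher and 2 lower, with list medians of 0.17 and 0.25 against 0.12 and 0.16 over all genes. Of all genes tested, 31.1% were higher and 20.7% lower under DMSO, and 36.2% and 22.8% under SAHA. PBX3 rose from 3.29, 3.04 and 9.08 FPKM in EGFR-high DMSO to 18.1, 20.8 and 21.7 in EGFR-low DMSO, a log2 fold change of 1.92 (SE 0.28, adjusted p = 0.000361), with 2.33 under SAHA. PBX2 fell, with 28.9, 22.99 and 20.7 FPKM in EGFR-low DMSO and 67.4, 63.9 and 50.2 in EGFR-high DMSO (log2 fold change -1.29, SE 0.25, adjusted p = 0.00146). In the untreated experiment 0 of 6 tested partners were called in any comparison.

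Polycomb and Trithorax genes split in both directions. Of 11 Polycomb complex 2 genes 1 was higher and 4 lower under DMSO, and 2 higher and 4 lower under SAHA (medians 0.01 and -0.02). EZH2, its methyltransferase, had a log2 fold change of 0.45 (SE 0.15, adjusted p = 0.0246) under DMSO, and PHF1, an accessory subunit, -1.05 (SE 0.20, adjusted p = 0.00144). Of 16 Polycomb complex 1 genes 3 were higher and 5 lower under DMSO, and 4 higher and 7 lower under SAHA (medians -0.14 and -0.29). Among them PHC1 had -0.93 (SE 0.13, adjusted p = 0.000336) and CBX7, which reads the Polycomb mark, -0.85 (SE 0.16, adjusted p = 0.00111). Of 13 MLL and H3K27 demethylase genes 5 were higher and 1 lower under DMSO, and 5 higher and 2 lower under SAHA (medians 0.19 and 0.28), with the demethylase KDM6A at 1.08 (SE 0.19, adjusted p = 0.000884) and KDM6B at 0.80 (SE 0.20, adjusted p = 0.00529). No gene of these 3 lists was called in an untreated comparison. The shares over all genes are those given for the TALE partners.

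CYP26B1 was higher in EGFR-low in both experiments. CYP26B1, which breaks down retinoic acid, was 5.98, 3.57 and 6.85 FPKM in untreated EGFR-low, 0.221, 0.542 and 0.63 in EGFR-high and 0.496, 0.399 and 0.468 in Parental cells. It rose in EGFR-low against EGFR-high (log2 fold change 2.12, SE 0.23, adjusted p = 0.00044) and against Parental (log2 fold change 2.12, SE 0.23, adjusted p = 0.000964), and also under DMSO (log2 fold change 1.18, SE 0.28, adjusted p = 0.00471). ALDH1A3, which makes retinoic acid, was 50.8, 25.98 and 17.04 in EGFR-low DMSO and 221, 229 and 145 in EGFR-high DMSO (log2 fold change -2.74, SE 0.42, adjusted p = 0.00044). Under SAHA, where neither library that stands apart is in the groups, ALDH1A3 had -3.73. In all, 2 of 10 tested genes were higher and 0 lower in untreated EGFR-low against EGFR-high, 1 was higher against Parental, 1 higher and 2 lower under DMSO, and 2 higher and 3 lower under SAHA. Over all genes the shares called higher and lower were 1.62% and 2.19% in the untreated EGFR-low against EGFR-high comparison, 0.831% and 0.770% against Parental, 31.1% and 20.7% under DMSO, and 36.2% and 22.8% under SAHA.

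Of 104 other homeobox genes 31 were tested in the treated and 22 in the untreated experiment. Under DMSO 11 were higher and 10 lower, and under SAHA 12 and 12, with medians of 0.04 and 0.02, against 31.1% higher and 20.7% lower, and 36.2% and 22.8%, of all genes. NKX2-1 had the largest rise, 3.98 (SE 0.74, adjusted p = 0.00114) under DMSO and 4.97 under SAHA, and PAX6, an eye and brain factor, the largest fall under DMSO, -3.33 (SE 0.51, adjusted p = 0.00043). In the untreated EGFR-low against EGFR-high comparison BARX2 (log2 fold change -3.53, SE 0.21, adjusted p = 1.01e-05) and PAX6 (log2 fold change -1.33, SE 0.24, adjusted p = 0.0116) fell and none rose, against 1.62% higher and 2.19% lower of all genes. Against Parental BARX2 fell (log2 fold change -2.40, SE 0.21, adjusted p = 0.000366), where 0.770% of all genes were lower.

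Of 13 tested genes beside the clusters 2 were higher and 1 lower under DMSO, and 3 higher and 1 lower under SAHA (medians -0.05 and 0.06), against 31.1% higher and 20.7% lower, and 36.2% and 22.8%, of all genes. SKAP2, beside HOXA, was 111, 216 and 160 FPKM in EGFR-low DMSO and 57.8, 59.8 and 68.8 in EGFR-high DMSO (log2 fold change 1.32, SE 0.25, adjusted p = 0.00114), and HIBADH, on the other side, had 0.65 (SE 0.12, adjusted p = 0.0012). ATP5G3, a gene of the HOXD region, had -0.61 (SE 0.18, adjusted p = 0.0138). Of the CDX and other neighbours of the HOX class 1 of 13 reached the filter in the treated experiment and none was called, and of the noncoding list 1 gene, PRAC1, was found and it did not reach the filter. SAHA against DMSO called 0 genes of any list in either population.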

How the data were processed

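PC-9 RNA was sequenced in 21 libraries, 3 in each of 7 groups. The submitters' processing notes name STAR 2.5.1b, Cufflinks 2.2.1, DESeq2 1.10.1 and hg19, without role or order. The authors deposited 2 tables, 1 per experiment, of values read here as FPKM because they are not whole and sum to 467897 to 592942 per library, and all columns were mapped. The depth is unknown, so no counting interval is given. Members and gene lists were chosen with earlier results of these data known. Each experiment was fitted separately with limma 3.58.1 (R 4.3.3, eBayes with trend) on log2(FPKM + 1), keeping genes that reached 1 FPKM in 3 or more of its libraries. The design had a mean for each group without a replicate block, and Benjamini-Hochberg adjustment ran over all genes tested, with a threshold of 0.05. The fit was tested on simulated data. Genes below the filter were compared by exact two-sided permutation tests. Genes named with values in every library were HOX genes called in any comparison and the highest gene of each cluster, and up to 3 called genes per other list and comparison were named. HOXA4, HOXA7, HOXA9, HOXD1, HOXD3 and HOXD8 fall outside this rule and were given by library in some groups. Same-numbered libraries deviated together (every correlation over 0.1) in untreated EGFR-low against EGFR-high, in SAHA EGFR-low against EGFR-high and in EGFR-low SAHA against DMSO, so the block was read there. Sequences came from GENCODE v29 transcripts and RefSeq promoters, with motifs counted on both strands including overlaps. Values of 1 HOX gene, 1 gene of another list and some sequences are not reported here.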

Additional observations from a re-analysis of the deposited data

Results flagged for a closer look

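Among the 11 HOX genes tested in both experiments, 4 had EGFR-low libraries that lay entirely above the EGFR-high libraries without treatment and entirely below them under DMSO. All are genes of the HOXB cluster. The log2 fold change of EGFR-low over EGFR-high was 0.68 untreated and -1.19 under DMSO for HOXB3, 0.56 and -1.37 for HOXB5, 0.36 and -1.69 for HOXB6, and 0.72 and -3.76 for HOXB7. Of all 11118 genes tested in both experiments, 5.81% showed such a reversal in either direction. The 4 genes passed the filter of the treated experiment through EGFR-high only, which favours their treated direction. HOXB3 and HOXB6 also share exon bases, so the 4 are not independent and the count is a description only. Without the replicate block no untreated difference was called, and with it that of HOXB7 was (adjusted p = 0.0433). The experiments were fitted separately, and the difference between them was not tested.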

How the results depend on the processing

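For HOX genes called in a comparison of EGFR-low with EGFR-high, and for HOXB7 untreated, 423 values under alternative settings were compared, of which 416 kept direction and side of the threshold, 6 lost the call (5 for HOXC10, 1 for HOXB9), 1 gained it (HOXB7 untreated, replicate block) and 0 reversed. Gains by genes not called are outside these values. HOXC10 was gained under SAHA with the replicate block. Without EGFR-low SAHA 1 all 16 HOX genes tested under SAHA were called, where 4267 of all 12190 genes were higher and 2524 lower. The replicate block called 1 HOX gene in the untreated EGFR-low against EGFR-high comparison in place of 0. It moved no other count of HOX calls by over 1.5 times. With no filter on low values 1 of 29 HOX genes was called in untreated EGFR-low against Parental, where 186 of all 16538 genes were higher and 145 lower. For EGFR-low against EGFR-high it was 28 of 35 under DMSO and 25 of 35 under SAHA. Of all 17906 genes 4213 were higher and 2766 lower under DMSO, and 5018 and 3270 under SAHA. With a filter of 5 FPKM, 4 of 4 HOX genes tested were called under DMSO and 4 of 4 under SAHA. Of all 9751 genes 3013 were then higher and 1992 lower under DMSO, and 3576 and 2198 under SAHA. Leaving out each library in turn gave 13 to 15 HOX calls under DMSO, 14 to 16 under SAHA and 0 in the other comparisons. In these fits 2920 to 3777 of all 12193 to 12228 genes were higher and 1920 to 2421 lower under DMSO. Under SAHA 3776 to 4335 of all 12189 to 12202 genes were higher and 2454 to 3214 lower. The alternative without EGFR-low DMSO 1 and EGFR-high DMSO 3 was chosen after seeing the data. Log2 fold changes and their ranks depend on the pseudocount. At 0.1 HOXA3 was at -5.29 under DMSO and -6.96 under SAHA, and HOXB7 at -4.69 and -5.81. For EGFR-low against EGFR-high, HOXD4 under DMSO ran from 0.27 to 3.07 over its alternatives (0.27 with a pseudocount of 5, 3.07 with 0.1) and HOXA10 from 0.78 to 3.55. Values below 1 FPKM rest on an unknown number of fragments.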
